A study of Mus musculus with 7 samples.

Results

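The AP-1 subunit genes are described here through the accessible chromatin around them in 2 sorted populations of mouse mammary tumor cells. The 9 genes were Fos, Fosb, Fosl1 and Fosl2 of the Fos family, Jun, Junb and Jund of the Jun family, and the related genes Batf and Atf3. They were chosen as a gene family, by name, at a time when earlier results of these data were known. Each accessible region was given to the protein-coding gene whose transcription start site (TSS) lay nearest to the middle of the region, and 111 of 119215 regions had 1 of the 9 genes as their nearest.

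Fos and Jun proteins carry a basic leucine zipper, pair with one another to form the transcription factor AP-1, and bind a short palindromic DNA sequence. Fos, Fosb, Jun, Junb and Atf3 are immediate-early genes, which are transcribed within minutes of a growth factor, stress or injury signal without new protein synthesis. In epithelia AP-1 is known for its part in proliferation, invasion and wound responses, and it binds many distal enhancers.

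ATAC-seq, in which a transposase cuts DNA where chromatin is open, was applied to tumors of C57BL/6 mice that carried both MMTV-PyMT, in which a mammary tumor virus promoter drives the polyoma middle T oncoprotein in the mammary epithelium, and a bacterial artificial chromosome that reports the activity of Dll1, a Notch ligand gene, with mCherry. Blood and endothelial cells that carried CD45, CD31 or Ter119 had been removed in the sort, and the rest had been split by mCherry into Dll1+ cells, with the reporter, and Dll1- cells, without it, with no drug or other treatment named in the labels. There were 3 Dll1+ and 4 Dll1- samples from 4 tumors, of which 3 gave both.

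The deposited files were 1 peak list for each group, made from its samples together. There was therefore 1 value per group, no replicate error and no test, and a difference between the lists is a difference between these 2 pools. The lists held 132872 summits in Dll1+ and 148923 in Dll1-. Each summit had a fold enrichment, the ratio of the reads stacked there to the local background, and a -log10 p-value. From this pair the number of reads and the local background were recovered, and the genome-wide background was 3.738 reads in Dll1+ and 7.199 in Dll1-, so that the Dll1- list was 1.93 times as deep. Strength was compared by the percentile of the fold enrichment within its own list, from 0 to 100, with the strongest summit standing for a region. Regions near markers of cell types other than luminal cells were called as well. For the luminal list, 132 regions were shared, 13 were in the Dll1+ list only and 29 in the Dll1- list only. The same counts were 36, 8 and 22 for basal markers, 49, 2 and 44 for fibroblast markers, 20, 3 and 12 for immune markers, 43, 6 and 22 for endothelial markers, and 8, 0 and 0 for erythroid markers. Fibroblast marker regions were Dll1- only in 46.3% and Dll1+ only in 2.11%, against 24.6% and 9.01% of all regions, while luminal marker regions were Dll1- only in 16.7%. The part of these other cell types in the values below was not tested.

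Most regions of the AP-1 subunit genes were open in both populations. Of the 111 regions, 88 (79.3%, Wilson 95% interval 70.8 to 85.8) were in both lists, 15 (13.5%) were in the Dll1- list only and 8 (7.21%) were in the Dll1+ list only. Over all regions 24.6% were in the Dll1- list only and 9.01% in the Dll1+ list only, so neither share of the members lay above its background. The Dll1- share depended on how weak summits were treated. With rows above the median fold enrichment of their list, 17 of 58 member regions (29.3%) were in the Dll1- list only, against 20.4% of all. With equal numbers of the strongest rows of each list, fewer than either list held, 13 of 54 (24.1%) were, against 16.2%. Both rules count a region as Dll1- only where Dll1+ had a weaker summit. Where a strong region had to be absent from the whole of the other list, 4.30% of the member regions were Dll1- only, against 7.49% of all. The intervals treat regions as independent and cover counting error only. Copies of a molecule made by PCR could not be told apart in the lists, and regions of 1 gene are not replicates of a condition.

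Fos, the founding member of its family, had 28 regions, of which 23 were shared, 2 were in the Dll1+ list only and 3 in the Dll1- list only. Jun, the main partner of the Fos proteins, had 32, with 24 shared, 3 in Dll1+ only and 5 in Dll1- only. A protein-coding gene with any region had a median of 4, and Jun stood at percentile 97.6 and Fos at percentile 96.6 of 17277 such genes. Atf3, a stress-induced relative, had 16 regions with 12 shared and 2 in each list alone. Fosl2, a Fos-related gene with a broad role in epithelia, had 8 shared and 3 Dll1- only regions, and Fosb had 8 shared and 1 Dll1- only. Batf, best known in lymphocytes, had 5 shared regions and 1 in each list alone. Fosl1 with 2 regions, Junb with 4 and Jund with 2 had shared regions only. The Fosl2 count depended on which TSSs the annotation held. With 1 TSS for each gene it was 18 shared, 2 Dll1+ only and 10 Dll1- only. The Jun count depended on the distance allowed. Within 50 kb of the TSS it was 10 shared and 1 in each list alone, while Fos had 22 shared, 2 Dll1+ only and 3 Dll1- only. The percentiles of Jun and Fos were not recomputed under these rules.

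**Figure D1:**
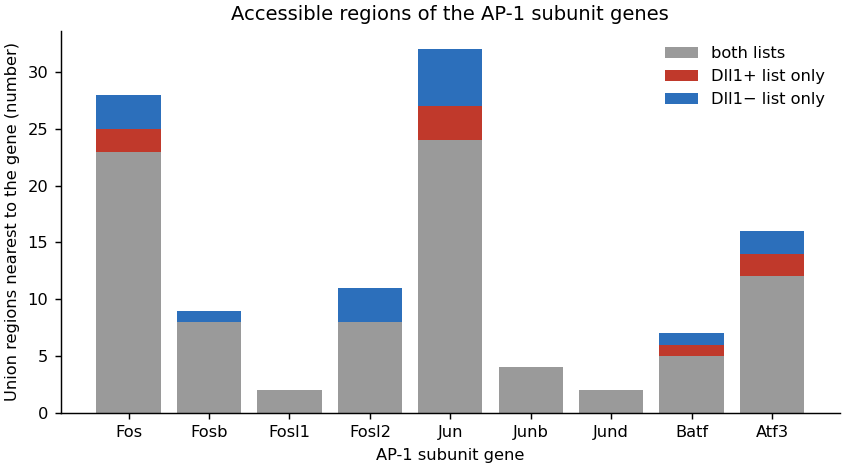
Number of accessible regions (vertical axis) nearest to each AP-1 subunit gene (horizontal axis), stacked by whether a region was in both lists, in the Dll1+ list only or in the Dll1- list only. Jun with 32 and Fos with 28 regions carried more than the other genes, and the grey shared part was the largest for each gene. This order of the genes changed within 50 kb of the TSS and with 1 TSS for each gene.

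A promoter region, meaning the region that covered the TSS or lay nearest to it within 1000 bp, was present in both lists for 8 of the 9 genes. Batf was the exception, with its nearest region 11824 bp from the TSS. Atf3 was open at the TSS of its shorter transcripts, whereas the nearest region to the TSS of its long transcript lay 1251 bp away, so the promoter values of Atf3 belong to the former TSS.

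The promoters of Fos and Jun are shown because they carry the largest local backgrounds among the member promoters, described below. They are the 250 bases before each RefSeq TSS on GRCm38.p6, and RefSeq promoters were found for 8 of the 9 genes, all but Fosl1. Capitals mark TATAAA in Fos, 33 to 28 bases before the TSS, and TGACATCA in Jun, 45 to 38 bases before it, the AP-1-like element of the Jun promoter. Both strands were searched, and of 32817 RefSeq promoters 12.4% held TATAAA or TTTATA and 2.93% held TGACATCA or TGATGTCA. A match describes the letters only.
Fos, chr12:85473640-85473889, plus strand: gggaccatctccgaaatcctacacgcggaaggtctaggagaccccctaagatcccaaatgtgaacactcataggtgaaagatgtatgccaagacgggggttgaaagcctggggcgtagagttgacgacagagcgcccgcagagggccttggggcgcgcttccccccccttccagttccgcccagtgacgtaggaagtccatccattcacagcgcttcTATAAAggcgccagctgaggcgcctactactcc
Jun, chr4:95052223-95052472, minus strand: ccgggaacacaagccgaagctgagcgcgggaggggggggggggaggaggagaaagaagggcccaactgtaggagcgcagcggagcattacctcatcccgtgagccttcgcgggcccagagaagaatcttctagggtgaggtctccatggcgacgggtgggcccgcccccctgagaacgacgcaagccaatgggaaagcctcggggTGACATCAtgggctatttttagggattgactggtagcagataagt

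Measured by rank, 7 of the 8 promoter regions stood higher in the Dll1- list, against 68.1% of all shared promoter regions (those with their middle from 1000 bp before to 100 bp after a TSS). The Fos promoter (chr12:85473365-85474074) had a fold enrichment of 3.92 in Dll1+ and 4.22 in Dll1-, which put it at percentile 27.9 and 39.7. Fosb (chr7:19309943-19310558) stood at percentile 47.7 in Dll1+ and 63.1 in Dll1-. The Fosl2 promoter (chr5:32135004-32136144) was high in both lists, at percentile 84.3 and 86.2. Fosl1, a Fos-related gene linked to invasive epithelial cells, was the member whose promoter ranked higher in Dll1+ by its strongest summit, but the direction turned with the mean fold of its summits (4.66 points higher in Dll1-) and by recovered reads (0.41 points). Its promoter region (chr19:5447373-5448092) had a fold enrichment of 16.7 in Dll1+ and 12.4 in Dll1-, at percentile 95.1 and 88.8.

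In the Jun family all 3 promoters ranked higher in Dll1-. The Jun promoter (chr4:95052019-95052896) had a fold enrichment of 4.82 in Dll1+ and 6.83 in Dll1-, at percentile 40.6 and 66.2. Junb (chr8:84978505-84978986), which often restrains the growth effects of Jun, moved from percentile 27.7 to 46.3. Jund (chr8:70698357-70699405), the most constantly expressed of the family, moved from 47.4 to 56.0. The Atf3 promoter (chr1:191183079-191183979) had a fold enrichment of 5.53 in Dll1+ and 7.65 in Dll1-, at percentile 49.6 and 71.5.

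These shifts depended on the value that was ranked. With regions ranked among regions by fold enrichment they were larger, such as 30.7 percentile points at Jun and 14.2 at Fos. Ranked by -log10 p and by recovered reads, the difference Dll1- minus Dll1+ fell from 25.6 percentile points to 2.69 and 0.15 at Jun, from 18.6 to 6.44 and 0.98 at Junb, and from 21.9 to 8.95 and 3.61 at Atf3. At Fosb it fell from 15.5 to 3.74 and 0.66. At Fos it turned from 11.8 to -0.83 and -0.89, and at Jund it went from 8.57 to 0.21 and -0.17. The 8 promoters stood between percentile 89.4 and 99.9 by reads in both lists and between 84.0 and 98.6 by -log10 p.

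The fold enrichment divides by the local background, and, with no control library among the samples, that background comes from the ATAC-seq reads themselves. It was itself unusual at these genes. At the Jun promoter it was 29.1 times the genome-wide value in Dll1+ and 18.6 times in Dll1-, at percentile 99.99 and 99.98 of all shared promoter regions. The Fos promoter had 27.8 and 16.8 times the genome-wide value. Jund had 19.6 and 14.6 times, Junb 18.3 and 14.3 times, and Fosb 11.6 and 8.49 times. Atf3 and Fosl2 lay a little lower, with 9.71 and 8.51 times for Atf3 and 9.44 and 8.13 times for Fosl2, still above percentile 97 in both lists. Fosl1 did not share this, with 2.10 and 2.38 times. In 7 of the 8 genes, all but Fosl1, the multiple was larger in Dll1+ than in Dll1-, as it was in 66.4% of all 14951 shared promoter regions and in 98.1% of the 734 among them with a multiple above 8 in either list, so this direction was not particular to the AP-1 genes.

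**Figure D2:**
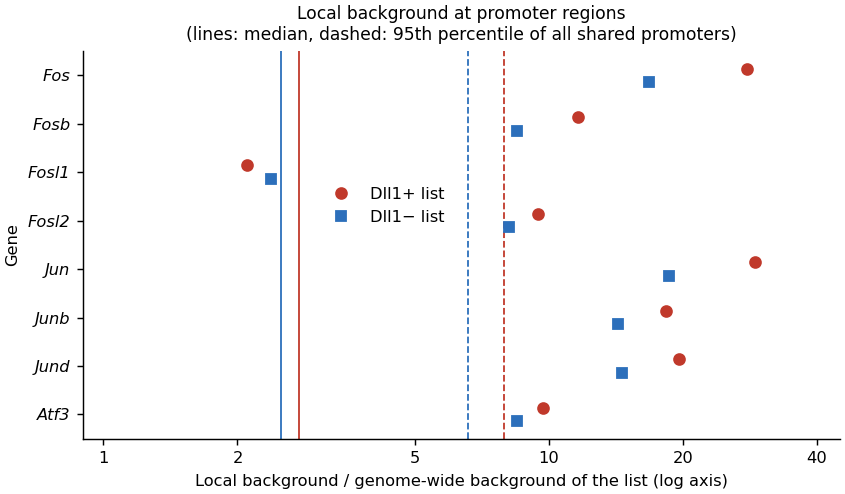
Local background at the promoter region of each gene, divided by the genome-wide background of the same list, on a log axis (red circles Dll1+, blue squares Dll1-). Solid lines give the median and dashed lines the 95th percentile of all shared promoter regions, in the color of the list, and 7 of the 8 genes lie to the right of the dashed line of their list.

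The raised background was not limited to the promoters. Of the 111 member regions, 23 (20.7%) lay on a local background above 10 times the genome-wide value in at least 1 list, against 0.55% of all regions. The limit of 10 was set after the values had been seen. These were 9 of the 28 regions of Fos, 3 of 9 of Fosb, 4 of 32 of Jun, 4 of 4 of Junb, 2 of 2 of Jund and 1 of 16 of Atf3, and no region of Fosl1, Fosl2 or Batf. In all, 656 regions nearest to 297 genes passed the limit, and Fos and Frmd8, with 9 regions each, had more than any other gene. Neighboring regions can share nearly 1 value, so they are not separate observations. The 4 regions of Jun had backgrounds of 113.9, 113.6, 108.8 and 99.2 reads in Dll1+.

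The reads at the summit were therefore compared as well. They were scaled by the genome-wide background of the list, and the ratio of Dll1- to Dll1+ was divided by its median over all shared regions, which was 0.846 (log2 -0.24). A ratio of 1 thus means the Dll1- to Dll1+ ratio of the typical shared region, and says nothing of how many reads a region held. Intervals are exact 95% intervals for counting error only and hold the median and the scaling fixed.

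By this measure the promoters went different ways. At Fos, 411 reads in Dll1+ stood against 513 in Dll1-, a ratio of 0.77 (0.67 to 0.87), so the Dll1- to Dll1+ ratio of reads lay below that of the typical shared region although the fold enrichment ranked higher in Dll1-. At Atf3, 205 reads in Dll1+ stood against 475 in Dll1-, a ratio of 1.42 (1.20 to 1.68), and reads and rank pointed the same way. The intervals of the other 6 promoters held 1. Jun had 528 and 921 reads and a ratio of 1.07 (0.96 to 1.19). Junb had 270 and 484 reads, at 1.10 (0.95 to 1.28). Neither Jun family promoter thus differed from the typical region beyond its counting interval, in spite of the change in rank. Jund had 396 and 587 reads, at 0.91 (0.80 to 1.04). Fosb had 238 and 394 reads, at 1.02 (0.86 to 1.20). Fosl2, with 419 and 675 reads, had a ratio of 0.99 (0.87 to 1.12), and Fosl1, with 147 and 225 reads, a ratio of 0.94 (0.76 to 1.16).

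**Figure D3:**
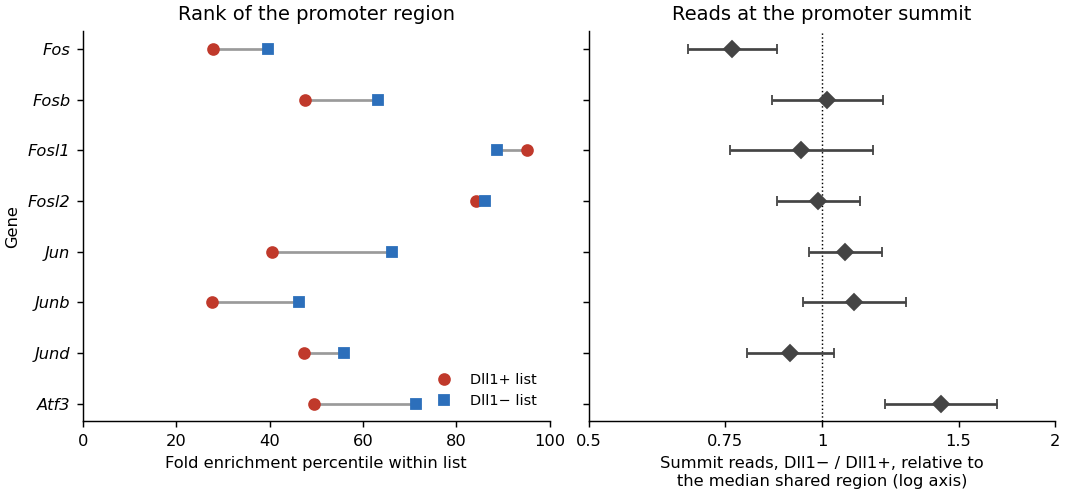
Left, percentile of the fold enrichment of each promoter region within the Dll1+ list (red circles) and the Dll1- list (blue squares). Right, ratio of summit reads in Dll1- to Dll1+ relative to the median shared region, on a log axis, with 95% counting intervals: the interval of Fos lies below 1, that of Atf3 above 1, and those of the other 6 genes cross it.

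At the 3′ ends of the genes with raised background, reads leaned toward Dll1+. This set, the shared regions with their middle within 2000 bp of the annotated 3′ end of the nearest gene and over 500 bp past its start, was defined after the values had been seen. It held 6 member regions, 2 at Fos, 2 at Jun, 1 at Fosb and 1 at Junb, and the ratio was below 1 in 6 of 6, with a median of 0.73. Over all 2304 such regions in the genome 46.4% were below 1 and the median was 1.02. The 6 regions also lay on a background above 10 times the genome-wide value, and over all 595 shared regions of that kind 63.4% were below 1, with a median of 0.94, while 11 of the 21 such regions of the members were.

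The region over the 3′ UTR of Fos (chr12:85476104-85477069) had 223 reads in Dll1+ and 238 in Dll1-, a ratio of 0.65 (0.54 to 0.79). The region just past the end of Fos (chr12:85477240-85479160) had 375 and 399 reads, again at 0.65 (0.57 to 0.75). At the 3′ end of Jun, chr4:95048045-95049533 had 358 and 409 reads, at 0.70 (0.61 to 0.81), and also covered the TSS of a neighboring non-coding transcript. The region chr4:95049660-95050204 had 215 and 279, at 0.80 (0.66 to 0.96). The Fosb region (chr7:19302052-19305450) had 360 and 451 reads, at 0.77 (0.67 to 0.89). All 5 of these intervals lay below 1. The Junb region (chr8:84975832-84976874), with 413 and 617 reads, was at 0.92 (0.81 to 1.04), and its interval held 1. The local background at the Fos, Jun and Fosb regions was between 29.6 and 32.3 times the genome-wide value in Dll1+ and between 17.0 and 19.4 times in Dll1-. By rank of fold enrichment the same 6 regions stood slightly higher in Dll1-, by 0.12 to 5.65 percentile points.

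With promoters, gene ends and distal regions together, the members leaned toward Dll1- by both measures. Of the 88 shared regions of the 9 genes, 69 (78.4%) ranked higher in the Dll1- list, against 59% of all shared regions, and the median difference was 5.57 percentile points against 1.67. Ranked by recovered reads the members came closer to the background, with 70.5% against 63.9% and a median of 3.07 against 2.61. The rank also moved with the local background. On a background above 10 times the genome-wide value, 21 of 21 shared member regions ranked higher in Dll1-, and so did 80% of all 595 such regions. Of the other shared member regions 48 of 67 (71.6%) did, against 58.9% of all. A difference above 10 points was seen in 31 regions (35.2%) toward Dll1- and in 2 (2.27%) toward Dll1+, where all shared regions gave 25.1% and 15.2%. By reads, 56 of the 88 (63.6%) had a ratio above 1, where the median of all shared regions is 1 by construction. Without the division by that median, 32 of the 88 (36.4%) were above 1, against 30.3% of all shared regions. The rank leaned to Dll1- in 29 of 41 shared regions of the Fos family, 25 of 30 of the Jun family and 15 of 17 of Batf and Atf3.

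The genes differed among themselves in the reads. At Atf3, 12 of 12 shared regions had a ratio above 1, from 1.00 to 1.74. Jun had 18 of 24 above 1 and Fosb 6 of 8. Without the division by the median of all shared regions these counts were 5 of 12, 12 of 24 and 5 of 8. Of the counting intervals after that division, 4 lay above 1 and 0 below at Atf3, 6 and 4 at Jun, and 5 and 1 at Fosb. Fos went the other way, with 14 of 23 below 1 and a median of 0.94, although 6 of its counting intervals lay below 1 and 4 above. At Fosl2 6 of 8 were below 1, but no interval lay below 1 and 1 lay above it. Fosl2 was also the gene whose ranks leaned to Dll1+, with 3 of 8 higher in Dll1-. Regions of 1 gene share their surroundings and their libraries, and the differences between genes were not tested.

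**Figure D4:**
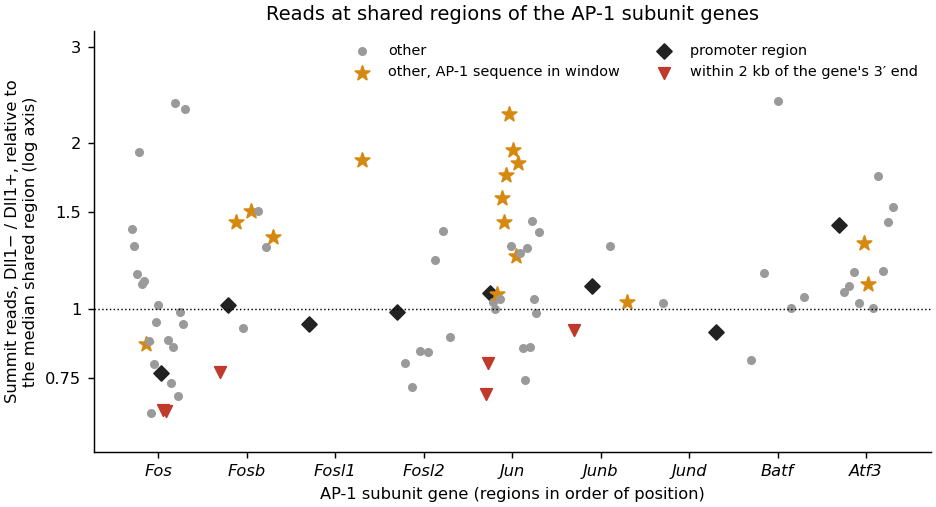
Ratio of summit reads in Dll1- to Dll1+ relative to the median shared region (log axis) for each of the 88 shared regions, grouped by gene and ordered by position. Black diamonds are promoter regions, red triangles regions within 2 kb of the gene's 3′ end, stars other regions with an AP-1 sequence in the summit window and grey points the rest; all 6 triangles lie below 1 and all 8 stars of Jun lie above it.

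The strongest distal regions stood in the upper part of both lists for 6 of the genes. Jun had its strongest at chr4:95178366-95179077, at -126499 bp from the TSS in intergenic DNA, at percentile 99.3 in Dll1+ and 97.7 in Dll1-. The Atf3 intron region chr1:191204533-191205379 was at percentile 99.2 and 99.4. For Fos the strongest in Dll1- was chr12:85485599-85486466, 12142 bp downstream, at 87.0 and 91.8, with chr12:85437065-85437931 slightly stronger in Dll1+ (88.2), and for Fosl2 chr5:32182889-32183653, 47470 bp downstream, at 85.9 and 92.0. The strongest Fosb region lay in an intron upstream (chr7:19326993-19327517), at 81.9 and 86.8, and that of Batf in its own intron (chr12:85705143-85706132), at 82.8 and 87.2. By rank, Jun was the 1 gene of these 6 whose strongest distal region stood lower in Dll1-. By reads, the ratio was above 1 at Fosl2, at 1.39 (1.18 to 1.63), and at Fosb, at 1.35 (1.14 to 1.61). It was below 1 at Jun, at 0.74 (0.64 to 0.87), and at the first of the Fos regions, at 0.88 (0.78 to 0.99). At the Fos region that was stronger in Dll1+, chr12:85437065-85437931, the ratio was 1.16 (0.95 to 1.42). The intervals at that region, Atf3 (0.89 to 1.18) and Batf (0.85 to 1.30) held 1. Junb and Jund had their strongest distal regions at percentile 55.6 and 8.77 in Dll1+ and 61.3 and 16.4 in Dll1-. That of Fosl1, in its intron, stood at 10.4 and 37.2.

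Larger shifts were found among regions of middle strength. A Fos region 36762 bp downstream (chr12:85510425-85510879) moved from percentile 55.2 in Dll1+ to 89.4 in Dll1-, with 28 and 108 reads and a ratio of 2.37 (1.55 to 3.73). A second Fos region, 58975 bp downstream in an intron outside Fos itself (chr12:85532289-85533442), had 25 and 94 reads and a ratio of 2.31 (1.47 to 3.74). Upstream of Batf, chr12:85666432-85666862 moved from percentile 35.6 to 75.2, with 20 and 78 reads and a ratio of 2.39 (1.45 to 4.13). Fos and Batf lie on the same chromosome with Jdp2, a Jun dimerization protein gene, between them, and 14 of the 14 regions of Jdp2 were shared. The widest shift at Jun was chr4:95141261-95141707, from percentile 23.5 to 58.2, with 23 and 73 reads. In the other direction the widest shift at Fosl2 was the intron region chr5:32143353-32143905, from percentile 42.3 in Dll1+ to 22.5 in Dll1-, with 52 and 61 reads and a ratio of 0.72 (0.49 to 1.06), an interval that held 1.

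At Fosb the widest shift was an upstream intron region (chr7:19321469-19321855), from percentile 21.9 in Dll1+ to 44.5 in Dll1-, with 114 and 280 reads and a ratio of 1.51 (1.21 to 1.89). At Atf3 it was chr1:191267812-191268253, from 35.6 to 61.2, with 20 and 50 reads, a ratio of 1.53 (0.90 to 2.72). The intron region of Fosl1 (chr19:5448648-5448990) moved from 10.4 to 37.2, with 24 and 73 reads and a ratio of 1.87 (1.16 to 3.10), opposite to the rank of the Fosl1 promoter. Since these regions were picked as the widest shift of each gene, their values and intervals are a description.

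Toward Dll1+, the widest shift at Fos was chr12:85522539-85522954, from percentile 46.3 in Dll1- to 56.4 in Dll1+, with 91 reads in Dll1+ and 103 in Dll1- and a ratio of 0.69 (0.52 to 0.93). At Jun, chr4:95185119-95185802 stood at 77.0 in Dll1+ and 71.3 in Dll1-, with a ratio of 0.85 (0.60 to 1.21). At Batf, chr12:85647353-85647709 stood at 73.7 and 65.5, with a ratio of 0.81 (0.53 to 1.24). Of these 3, the interval lay below 1 at Fos and held 1 at Jun and Batf.

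**Figure D5:**
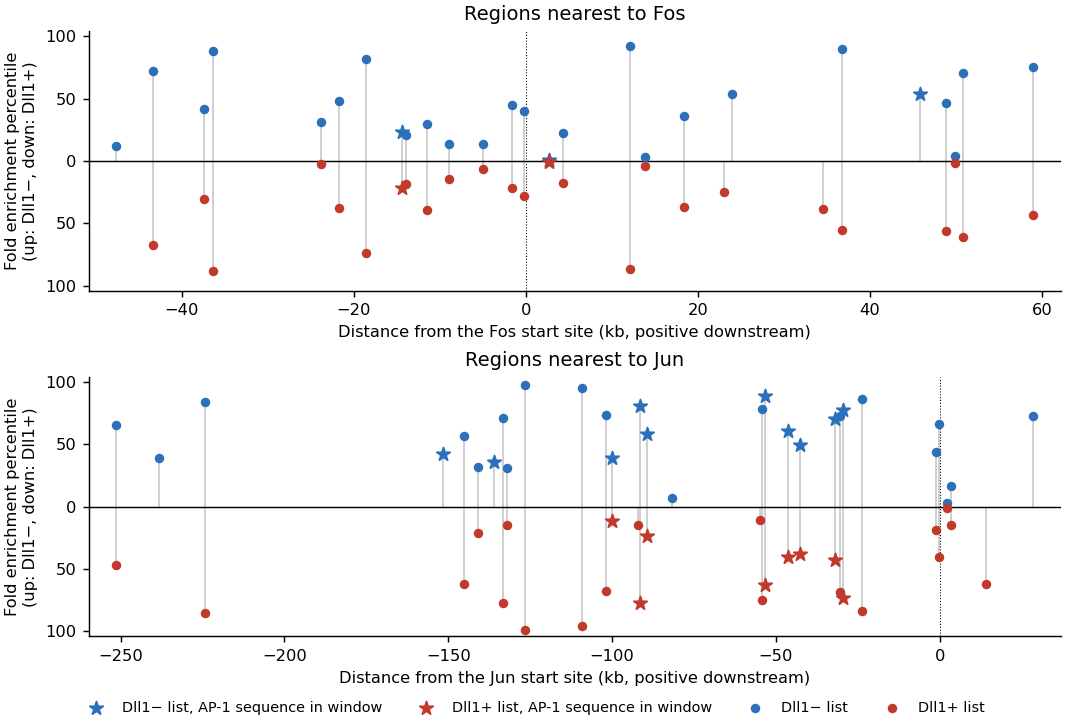
Percentile of the fold enrichment of each region nearest to Fos (top) and Jun (bottom) against the distance of its middle from the TSS in kb, drawn upward for the Dll1- list and downward for the Dll1+ list. Stars have an AP-1 sequence in the summit window, which 10 of the 32 Jun regions and 3 of the 28 Fos regions had, and a line on 1 side only is a region of 1 list.

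Because AP-1 proteins can act on their own genes, the AP-1 sequence TGACTCA, or TGAGTCA on the other strand, was searched in a window of 100 bp on each side of the summit that stood for the region. It was found in 25 of the 111 member regions (22.5%, Wilson 95% interval 15.7 to 31.1), against 18.1% of all regions. Jun held 10 of the 25, Atf3 4, Fos and Fosb 3 each, Fosl2 2, and Fosl1, Junb and Batf 1 each, with none in the 2 regions of Jund. A match does not show that a factor was bound.

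Regions with the sequence leaned toward Dll1-. It was in 7 of the 15 Dll1- only regions (46.7%), in 18 of the 88 shared regions (20.5%) and in 0 of the 8 Dll1+ only regions, where all regions of each class gave 30.4%, 15.4% and 4.40%. Among shared member regions with the sequence, 15 of 18 had a Dll1- to Dll1+ ratio of reads above 1 relative to the typical region, and the median ratio was 1.40. Without it, 41 of 70 did, with a median of 1.03. The same contrast held over all shared regions, with 73.8% above 1 among those with the sequence and 45.6% among those without. At Jun 8 of the 8 shared regions with the sequence had a ratio above 1, from 1.06 to 2.27, and 10 of the 16 without it did. At Fos, by contrast, both shared regions with the sequence were below 1, at 0.65 and 0.86.

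The sites of the 7 Dll1- only regions are shown because they were called in 1 population, followed by those of the 3 shared Jun regions with the sequence and Dll1- to Dll1+ ratios of 2.27, 1.95 and 1.84 relative to the typical region. Each line gives 29 bases of GRCm38 on the plus strand, with the AP-1 sequence in capitals. The gene named has the nearest TSS, and intron means an intron of any annotated gene. The intron sites of the Jun lines lie upstream of the Jun TSS, outside Jun itself.
Fos, intergenic, chr12:85519714-85519742: tcttccctgggTGACTCAgtgatccacgc
Fos, intergenic, chr12:85519766-85519794: atggtattcggTGAGTCAtactgtctgtg
Fosl2, near the TSS of an inner transcript, chr5:32146439-32146467: taattggtagaTGACTCAgaggcccagga
Jun, intergenic, chr4:95188221-95188249: agtaccagagaTGAGTCActggtggctgt
Jun, intron, chr4:95203750-95203778: atccttgcatgTGACTCAgtctaggctga
Jun, intron, chr4:95203765-95203793: tcagtctaggcTGAGTCAagggggcagga
Batf, intergenic, chr12:85667277-85667305: taagaagtagtTGAGTCAttaaaataata
Atf3, intron, chr1:191190037-191190065: tgagggtggacTGAGTCActccggtgagc
Atf3, intergenic, chr1:191230754-191230782: agtgaccatccTGAGTCAcccaaactcac
Jun, intron, shared, chr4:95105557-95105585: aggggactgacTGACTCAtgctgagctgt
Jun, intron, shared, chr4:95141380-95141408: catctaagctgTGACTCAgtgtgggaaac
Jun, intron, shared, chr4:95152144-95152172: catcccccactTGAGTCAtctccaggtgc

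The Fos region chr12:85519620-85519903 and the Jun region chr4:95203632-95203910 each held 2 copies of the sequence in the window. The Fos region had 95 reads in Dll1-, which would be 49.3 at the depth of Dll1+, and stood at percentile 54.0, while the Jun region had 35 reads and stood at percentile 42.3.

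The regions of 1 list were mostly weak. The 15 Dll1- only regions had 17 to 186 summit reads, which would be 8.83 to 96.6 reads at the depth of Dll1+, and the lowest summit in the Dll1+ list at the genome-wide background had 9. Thus 1 of the 15 lay below that floor at the depth of Dll1+, and the other 14 lay above it. The floor rises with the local background, so it does not show which of the 14 could be called in Dll1+. The median percentile of the 15 was 27.0, against 32.6 for all Dll1- only regions. At or above the median fold enrichment of the list stood 4 of the 15. The Jun region chr4:95023349-95024034 had a fold enrichment of 7.87 at percentile 72.8. The others were 2 Fos regions (chr12:85497400-85498279 at 5.35 and chr12:85519620-85519903 at 5.37) and the Atf3 region chr1:191230288-191230901 at 5.00, which equalled the median. The strongest Dll1- only regions of Fosl2, Batf and Fosb stood at percentile 27.0, 13.6 and 1.38. The 8 Dll1+ only regions had 18 to 80 reads and a median percentile of 19.2, against 29.4 for all Dll1+ only regions. Above the median fold enrichment stood 1, a region 14136 bp downstream of the Jun TSS (chr4:95037866-95038306), in an intron outside Jun itself. It had 32 reads, a fold enrichment of 6.97 and percentile 62.3. The strongest Dll1+ only regions of Fos, Batf and Atf3 stood at percentile 38.6, 23.4 and 2.14.

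Genes around the AP-1 subunits were counted in the same way. The relatives with a basic leucine zipper (19 genes, such as the Maf, Bach and Atf factors) had 168 shared, 15 Dll1+ only and 55 Dll1- only regions, and 54.2% of the shared ones ranked higher in Dll1-, against 59% of all shared regions. Of 38 Creb5 regions 3 were Dll1+ only and 12 Dll1- only, and of 69 regions of Bach2, a repressor that binds AP-1-like sites, 5 and 13. By count these were the widest surpluses toward Dll1- in the list, but such a count grows with the number of regions. Over all regions 24.6% were Dll1- only and 9.01% Dll1+ only. In the other direction only Atf7 had a surplus, with 2 and 1.

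The kinases and factors that act on AP-1 (18 genes) had 105 shared, 26 Dll1+ only (14.3%, against 9.01% of all regions, with 11 of the 26 at Map3k1) and 51 Dll1- only regions, and 61.0% of the shared ones ranked higher in Dll1-. Map3k1, a kinase upstream of Jun N-terminal kinase, had 11 Dll1+ only and 3 Dll1- only among 34 regions. It was the only gene of the list with a surplus toward Dll1+. Elk3, an Ets factor that acts with serum response factor, had 2 and 9 among 26 regions. Mapk14, the p38 alpha kinase, had 0 and 5 among 7. Textbook AP-1 targets (17 genes) had 98 shared, 11 Dll1+ only and 39 Dll1- only regions, with 70.4% of the shared ones higher in Dll1-. Vegfa, an angiogenic factor, had 2 and 10 among 27 regions, and Plau, the urokinase gene, 1 and 7 among 12. No gene of that list had more Dll1+ only than Dll1- only regions. In each of the 3 lists the Dll1- only share of regions was higher than the 13.5% of the subunit genes, at 23.1%, 28.0% and 26.4%, near the 24.6% of all regions.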

How the data were processed

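ATAC-seq peak lists of Dll1+ (3 samples) and Dll1- (4 samples) cells were used. The replicates of a group went through the ENCODE ATAC-seq pipeline together, and the authors deposited the optimal list of each group. Per the submitters' processing notes the build was mm10 (GRCm38), and the aligner, the peak caller and its thresholds are not given in the sources used here. The deposited fold enrichment (a ratio) and -log10 p-value of each summit were used as the authors gave them, and the deposited score and -log10 q-value were not used. The authors' later per-sample counts were not used here.

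Overlapping or touching rows of both lists were merged, and each merged region was assigned to the nearest TSS among all transcripts of protein-coding genes (GENCODE M21). Reads and background were solved from the fold enrichment, taken as (reads + 1)/(background + 1), and the Poisson p-value, with a tolerance of 0.01 in -log10 p, for 100% of Dll1+ and 99.9993% of Dll1- rows. Median summit reads were 43 and 61. The recovery was tested on simulated data. Sequences came from GRCm38.p6 and RefSeq. Python 3.11.15, numpy 2.4.6, pandas 2.3.3, scipy 1.17.1, pysam 0.24.0 and matplotlib 3.10.9 were used. Groups came from the labels. Named regions of each gene were its promoter, its strongest distal region, its widest shifts and the regions of 1 list at or above the median fold enrichment. Named genes of the other lists were those with the largest surplus of regions of 1 list. Other regions were named after their values were seen. The member genes and lists were chosen with earlier results of these data known. Alternatives changed the overlap rule, threshold, ranking, annotation and motif window.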

Additional observations from a re-analysis of the deposited data

How the results depend on the processing

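Of the summary values under the alternatives, 32 stayed within 1.5 times the main count or within the 95% interval of the main share or median, and 9 did not. With rows above the median fold enrichment 39 member regions were shared, as with equal numbers of the strongest rows of each list. Under both rules 2 were in the Dll1+ list only, with 17 and 13 in the Dll1- list only. With a reciprocal overlap of at least 50%, 14 were in the Dll1+ list only. Where a region had to be strong in 1 list and absent from the whole of the other, 1 was in the Dll1+ list only and 4 in the Dll1- list only. The median percentile difference was 8.34 (all shared regions 3.70) when ranked among regions and 3.07 (all 2.61) when ranked by recovered reads, a ranking added after the data were seen. At the promoters, the difference Dll1- minus Dll1+ reversed for Fos to -0.83 by -log10 p and to -0.89 by recovered reads, for Fosl1 to 4.66 with the mean fold of the rows and to 0.41 by recovered reads, and for Jund to -0.17 by recovered reads. The cause of these changes was not tested. Counts and promoter differences of single genes stayed within 1.5 times in 170 cases, moved further in 73 and reversed in those 5. No paired analysis was possible because each deposited list holds a whole group, and no sample could be left out for the same reason. Depth limits the Dll1+ list more than the Dll1- list.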
